A study of Mus musculus with 6 samples.

Results

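The comparison set open chromatin of the embryonic mouse nose against that of both jaw processes, using peaks that were strong in every library of one tissue and had no counterpart in the other. Peaks of 6 libraries were merged wherever they overlapped by at least 1 bp, which gave 382006 regions. A nose region had a deposited −log10 q of at least 5 in both nose libraries and no peak in any of the 4 jaw libraries, and 695 regions met this rule. A jaw region had a −log10 q of at least 5 in all 4 jaw libraries and no peak in either nose library, and 147 regions did. Nose regions were 0.182% and jaw regions 0.0385% of all merged regions. Among regions strong in both nose libraries they were 695 of 48974, or 1.42%, and among regions strong in all 4 jaw libraries 147 of 35926, or 0.409%. A jaw region had to pass in 4 libraries and a nose region in 2, so that the counts of the groups were set by unequal demands and were not compared. Each count rested on single libraries as well. The nose count rose to 2785 without nose replicate 1 and to 1559 without nose replicate 2, and the jaw count to 541 without maxillary replicate 1, 286 without mandibular replicate 2, 361 without nose replicate 1 and 324 without nose replicate 2.

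The libraries were bulk ATAC-seq of freshly dissected wild-type mouse face at stage E11.5, with 2 replicates each labelled nose, maxillary process (the upper jaw swelling) and mandibular process (the lower jaw swelling). In ATAC-seq the Tn5 transposase cuts and tags DNA that nucleosomes leave free, and a peak is a place where tags pile up. All groups shared genotype, stage and protocol, the cell type was given as mixed, and neither the number of embryos behind a library nor whether replicates came from separate litters was stated. Each of the 4 jaw lists was named with the short form of the jaw process it was not labelled as. The comparison kept both jaw processes together, so it did not depend on which was right. Values given in this report for maxillary or mandibular libraries follow the labels and do depend on that.

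The lists held 219779 to 299731 summits each, in 139404 to 185670 merged regions, of which 45499 to 94511 were strong. The maxillary lists had both the fewest and the most strong regions, 45499 in replicate 1 and 94511 in replicate 2. The weakest deposited −log10 q was 1.3 in 4 lists, 1.62 in mandibular replicate 1 and 2.55 in maxillary replicate 2, so that "no peak" meant no peak above those values. Reads were not used here, so the depth behind a peak is unknown. In bulk tissue, fewer cells with an open site and less opening per cell cannot be told apart.

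At this stage the nose forms from the frontonasal swellings, whose mesenchyme comes from cranial neural crest and whose surface thickens into the olfactory pits, while the jaws form from the first pharyngeal arch, where Dlx and Hand genes set upper and lower identity. Regions of open chromatin far from genes are often enhancers, short stretches where transcription factors bind and raise the activity of a gene that may lie far away. Among the factors active in facial mesenchyme, the basic helix-loop-helix proteins Hand and Twist bind E-boxes, the Alx and Prrx proteins are homeodomain factors that can bind a pair of facing core sites, and SOX proteins bind short AT-rich sites.

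The windows of 12 members are shown first, because the letters in them carry the clearest difference between nose and jaw regions. Each is 201 bp centred on the strongest summit, read 5′ to 3′ on the plus strand of GRCm38 from RefSeq. Capitals mark 4 words and their reverse complements: CATCTG (the E-box of Hand and Twist type), CAGGTG (the E-box of Zeb and Snai type), ACAATG (SOX) and TAATTA (the homeodomain palindrome). The type names here and below are labels, and a word does not show which factor binds it. The 6 nose regions were taken from the 10 strongest of their side and from those near genes of facial development, and were picked to show the words, so that how often a word stands in them says nothing about its frequency.
Ipo5, chr14:120758487-120758687: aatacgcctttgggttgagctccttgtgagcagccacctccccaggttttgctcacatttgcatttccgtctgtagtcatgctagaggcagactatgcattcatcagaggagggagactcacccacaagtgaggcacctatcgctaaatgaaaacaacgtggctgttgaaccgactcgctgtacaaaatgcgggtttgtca
Gm28710, chr5:16791345-16791545: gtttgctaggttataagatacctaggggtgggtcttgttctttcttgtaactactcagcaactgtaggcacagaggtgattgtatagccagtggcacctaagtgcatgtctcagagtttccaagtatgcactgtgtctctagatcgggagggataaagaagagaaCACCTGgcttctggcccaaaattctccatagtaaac
Ppargc1a, chr5:51471715-51471915: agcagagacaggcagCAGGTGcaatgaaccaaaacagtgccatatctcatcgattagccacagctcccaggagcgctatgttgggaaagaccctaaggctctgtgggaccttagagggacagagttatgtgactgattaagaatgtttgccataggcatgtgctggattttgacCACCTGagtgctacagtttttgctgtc
Nrg1, chr8:31731617-31731817: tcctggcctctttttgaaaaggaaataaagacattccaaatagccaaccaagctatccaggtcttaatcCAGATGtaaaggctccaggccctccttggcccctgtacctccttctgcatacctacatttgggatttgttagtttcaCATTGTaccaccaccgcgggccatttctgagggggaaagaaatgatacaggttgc
Irx1, chr13:71979886-71980086: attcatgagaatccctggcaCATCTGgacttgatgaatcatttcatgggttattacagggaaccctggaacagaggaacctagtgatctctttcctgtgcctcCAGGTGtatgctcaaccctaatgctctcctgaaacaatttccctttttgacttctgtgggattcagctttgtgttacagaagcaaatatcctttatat
Gsc, chr12:104552641-104552841: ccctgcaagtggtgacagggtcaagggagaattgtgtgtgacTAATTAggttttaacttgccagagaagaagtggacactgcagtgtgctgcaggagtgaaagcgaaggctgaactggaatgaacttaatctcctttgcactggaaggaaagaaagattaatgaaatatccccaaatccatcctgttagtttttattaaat

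The 6 jaw regions were picked in the same way and are named, like the nose regions, by the protein-coding gene whose start lay nearest.
Pax3, chr1:78027025-78027225: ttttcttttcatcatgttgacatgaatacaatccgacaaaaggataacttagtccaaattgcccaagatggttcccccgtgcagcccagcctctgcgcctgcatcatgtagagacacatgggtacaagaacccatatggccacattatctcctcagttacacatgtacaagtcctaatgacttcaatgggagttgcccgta
Trdmt1, chr2:13556376-13556576: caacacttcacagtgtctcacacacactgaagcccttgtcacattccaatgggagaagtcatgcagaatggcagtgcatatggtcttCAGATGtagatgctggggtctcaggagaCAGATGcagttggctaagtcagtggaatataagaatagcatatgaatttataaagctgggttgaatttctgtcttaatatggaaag
Cntnap2, chr6:46841031-46841231: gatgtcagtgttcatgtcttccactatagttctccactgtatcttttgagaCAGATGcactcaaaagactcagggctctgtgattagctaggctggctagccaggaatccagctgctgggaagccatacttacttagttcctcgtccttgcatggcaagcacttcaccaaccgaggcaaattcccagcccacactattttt
Unc5d, chr8:30002034-30002234: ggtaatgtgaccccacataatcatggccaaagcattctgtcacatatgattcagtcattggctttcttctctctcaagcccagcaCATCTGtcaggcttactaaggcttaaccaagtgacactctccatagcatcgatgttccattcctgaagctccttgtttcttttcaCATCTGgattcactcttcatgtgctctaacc
Hand2, chr8:57349412-57349612: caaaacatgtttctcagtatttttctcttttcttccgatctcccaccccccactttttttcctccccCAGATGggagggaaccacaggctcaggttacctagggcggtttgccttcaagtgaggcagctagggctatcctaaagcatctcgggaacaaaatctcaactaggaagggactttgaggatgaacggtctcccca
Osr1, chr12:9493127-9493327: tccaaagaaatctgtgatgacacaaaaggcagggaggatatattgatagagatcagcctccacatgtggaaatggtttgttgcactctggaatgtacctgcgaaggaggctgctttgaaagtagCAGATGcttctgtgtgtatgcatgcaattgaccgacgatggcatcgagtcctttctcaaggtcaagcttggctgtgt
The windows at Trdmt1 and Unc5d each held the Hand and Twist word more than once, and the windows at Cntnap2, Hand2 and Osr1 held it once. The windows of the strongest nose region and of the strongest jaw region, at Ipo5 and Pax3, held none of the 4 words.

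The strongest nose region lay at chr14:120758300-120758949, in intergenic sequence 152.6 kb upstream of Ipo5, which encodes a nuclear import receptor. Its −log10 q was 28.3 in nose replicate 1 and 34.0 in nose replicate 2, and no jaw library had a peak there. The second stood 0.365 kb upstream of Gm28710, a predicted gene, at chr5:16791268-16791771, with 25.5 and 19.9. The third stood in an intron of Ppargc1a, the coactivator of mitochondrial genes, at chr5:51471644-51472003, with 18.9 and 21.8.

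The remaining nose regions of the strongest 10 had a −log10 q between 15.7 and 23.4 in both libraries. They were assigned to Kdm4c (a histone demethylase), Cblb (a ubiquitin ligase), Wac, Esd (an esterase), Nrg1 (a ligand of ErbB receptors), Irx1 (an Iroquois homeobox factor) and Il7 (a cytokine). The Irx1 region, chr13:71979759-71980407, was intergenic and 16.3 kb upstream of the start, and it reached 23.4 and 16.3. The Nrg1 region, chr8:31731468-31732024, was 186.6 kb downstream of the nearest start and reached 16.4 and 19.7. Irx1 was the only transcription factor of the homeobox class among these 10 nearest genes, and none of the 10 was on a list of nose or jaw genes.

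The strongest jaw region, chr1:78026698-78027358, was intergenic and 169.7 kb downstream of the start of Pax3, a paired-box factor of neural crest and muscle progenitors. Its −log10 q was 12.3 and 18.4 in the maxillary replicates and 18 and 18.9 in the mandibular replicates. Pax3 had been placed on the list of frontonasal mesenchyme genes, and the region beside it was a jaw region. The second, at chr11:7796308-7797004, was 582.6 kb upstream of Igfbp3, which encodes a binding protein of insulin-like growth factors, with 12.1 and 16.4 in maxillary and 12.2 and 17.1 in mandibular libraries. The third, at chr2:13556281-13556692, was 11.8 kb upstream of Trdmt1, an RNA methyltransferase, with 14.8 and 15.5 against 11.1 and 11.1.

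Other jaw regions of the strongest 10 were nearest to Cntnap2 (a cell adhesion protein of the neurexin family), Atg10 (an autophagy enzyme), Unc5d (a netrin receptor), Ostm1, Zmym5 and 4930596D02Rik. The region at 4930596D02Rik lay in an intron of Grid1, a glutamate receptor gene, and the regions at Cntnap2 and Atg10 lay in introns of those genes. Their −log10 q ran from 9.62 to 27.7 over the 4 jaw libraries, and the highest was in maxillary replicate 2 at Unc5d.

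Strength described by the deposited values was moderate on both sides. Nose regions had a median −log10 q of 7.04 (quartiles 5.99 and 9.27) in nose replicate 1 and of 7.86 (6.27 and 10.5) in replicate 2. Regions strong in all 6 libraries, of which there were 31417, had medians of 17.0 and 19.1 there. Jaw regions had medians of 7.20 and 12 in the maxillary replicates and of 9.35 and 8.17 in the mandibular replicates, against 13.8, 25.4, 20 and 18.6 for regions strong in all 6. Regions strong in every library of the tissue, whatever the other tissue showed, had medians of 12 and 13.7 in the nose replicates. In the jaw libraries, in the same order, these were 12.3, 23.2, 18.2 and 16.7. Members had to lack a peak in the other tissue and the regions set against them did not. The sets were thus not chosen alike, and no test was made.

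**Figure D1:**
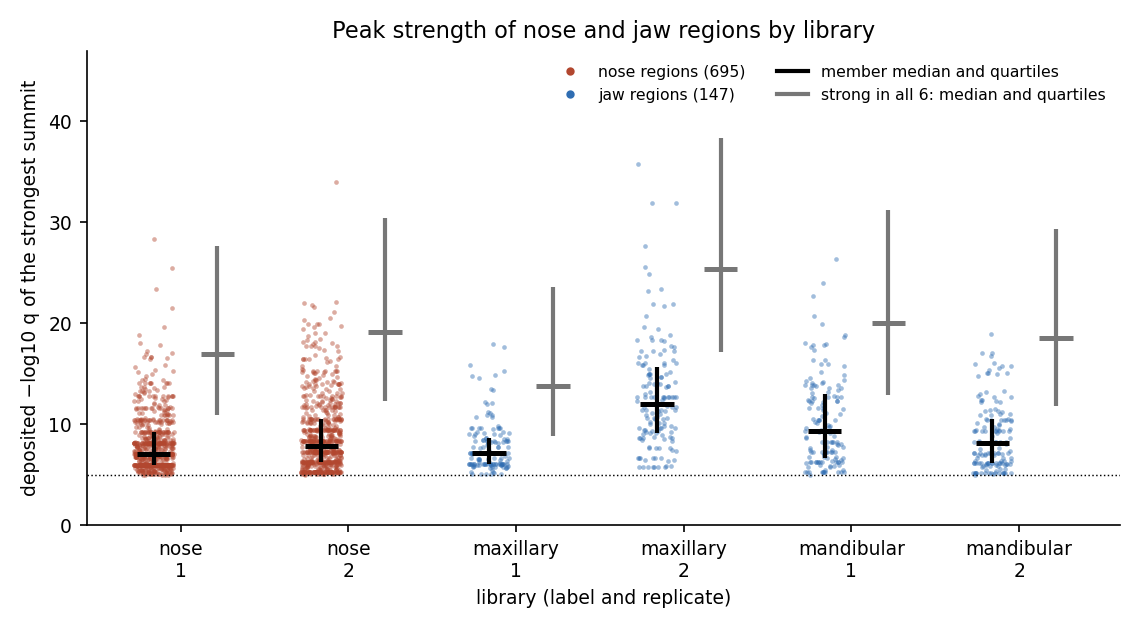
Deposited −log10 q of the strongest summit in every nose region (red points) and jaw region (blue points) in each library of its own tissue, with the median and quartiles of the members in black and of the 31417 regions strong in all 6 libraries in grey; the dotted line is the threshold of 5. Member medians lie between 7.04 and 12 and grey medians between 13.8 and 25.4.

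The column read as the fold over local background ran the same way. Its median in nose regions was 6.31 in nose replicate 1 and 6.23 in replicate 2, against 8.94 and 9.11 for regions strong in all 6. In jaw regions the median fold was 6.20 to 7.11 over the 4 jaw libraries, against 8.50 to 9.48.

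Replicates ranked the nose regions loosely. Across the 695 nose regions the −log10 q of the replicates had a Pearson correlation of 0.517 and a Spearman correlation of 0.412, over points that all passed the same threshold in both libraries. Replicate 2 was the higher in 416 regions. Among the 147 jaw regions, maxillary replicate 2 gave the highest of the 4 values in 78 and maxillary replicate 1 the lowest in 72, which followed the order of those libraries in regions strong in all 6.

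Many regions stood close to the threshold of the rule. The lowest −log10 q among the libraries of the tissue was between 5 and 6 in 281 nose regions and in 61 jaw regions, and a further 777 and 187 regions with no peak in the other tissue had a lowest value between 4 and 5. The nose regions just inside had 5.011 near Gm16485 and 5.018 near Trpm3, and a region near Lmo7 stood just outside with 4.992. The jaw region just inside had 5.018 near Ikbke, and the one just outside had 4.997 near Gnaq.

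Total absence from the other tissue was uncommon among strong regions. Of the 48974 regions strong in both nose libraries, 43659 (89.1%) had a peak in all 4 jaw libraries, 2559 in 3, 1366 in 2 and 695 in only 1. Of the 35926 regions strong in all 4 jaw libraries, 35389 (98.5%) had a peak in both nose libraries and 390 in only 1. Where a strong nose region had a peak in a single jaw library, that library was maxillary replicate 2 in 274 cases and maxillary replicate 1 in 87. The peak of those 274 had a median −log10 q of 4.05, and that of the 87 a median of 2.01. Where a strong jaw region had a peak in a single nose library, it was replicate 1 in 214 cases and replicate 2 in 176, with medians of 3.09 and 3.30.

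Nose and jaw regions lay farther from gene starts than the regions they were set against. Of the 695 nose regions, 9 were within 1 kb of the start of a protein-coding transcript, which is 1.29% (95% Wilson interval 0.683 to 2.44). None of the 147 jaw regions was, which allows a share of up to 2.55%. Among regions strong in all 6 libraries the share was 44.4%. It was 31.4% in regions strong in both nose libraries, 39.9% in those strong in all 4 jaw libraries and 8.26% in all merged regions. The Wilson intervals here and below treat regions as independent and cover counting error only. The median distance to the nearest start was 119 kb (95% interval 107 to 138) for nose regions. For jaw regions it was 106 kb (80.5 to 136), and the intervals overlapped. The median was 5.64 kb for regions strong in all 6 and 54.4 kb for all merged regions. Regions strong in both nose libraries had a median of 20.3 kb, and those strong in all 4 jaw libraries 10.2 kb.

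Nearly all members were intergenic or intronic. Intergenic sequence held 371 nose regions (53.4%) and 79 jaw regions (53.7%), and introns held 307 (44.2%) and 65 (44.2%). Regions strong in all 6 were intergenic in 41.9% and intronic in 36.4%, with 15.8% in untranslated regions. Coding exons held 5 nose regions and 1 jaw region, untranslated regions 9 and 0, and exons of noncoding transcripts 3 and 2. Over 500 kb from any start lay 92 nose regions (13.2%) and 16 jaw regions (10.9%). The share was 2.05% in regions strong in all 6 and 6.64% in all merged regions.

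The share of strong regions that were without a peak in the other tissue was higher in each class of distance from a start than in the class before it, on both sides. For nose it was 0.0585% within 1 kb, 0.756% from 1 to 10 kb, 1.38% from 10 to 50 kb, 1.79% from 50 to 100 kb, 3.03% from 100 to 500 kb and 5.35% beyond. For jaw it was 0, 0.225%, 0.460%, 0.746%, 1.03% and 1.76%.

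**Figure D2:**
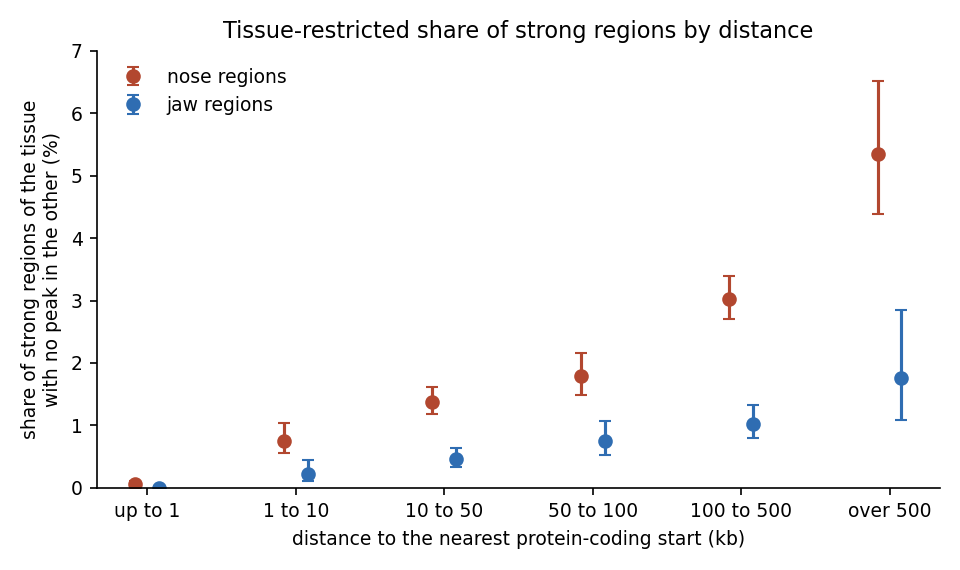
Share of the strong regions of each tissue with no peak in the other tissue, in 6 classes of distance to the nearest protein-coding start in kb, for nose (red) and jaw (blue); points are percentages and bars 95% Wilson intervals. The nose share runs from 0.0585% within 1 kb to 5.35% beyond 500 kb, and the jaw share from 0 to 1.76%.

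The 9 nose regions within 1 kb of a start were at Gm28710, Gas2 (a cytoskeletal protein), Sgpp2 (a phosphatase of sphingosine 1-phosphate), Rerg (a Ras-like GTPase), Clec12a (a lectin receptor of myeloid cells), Pde4d (a phosphodiesterase of cyclic AMP), C2cd4d, Sparc (a matrix glycoprotein) and Macc1. The Gas2 region, chr7:51887909-51888547, reached 15.1 in nose replicate 1 and 8.61 in replicate 2. The Sgpp2 region, chr1:78309392-78309787, reached 7.46 and 13.3. The regions at Rerg, Clec12a and Pde4d stood in untranslated sequence within 0.1 kb of the start, with values of 7.38 and 7.16, 7.04 and 8.34, and 5.99 and 6.27. The Sparc region was the weakest of the 9 in replicate 2, with 5.17 and 5.49, and Macc1 had 5.16 and 8.73.

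The spacing of members depends on how many there are, and it was not set against other regions. Another nose region lay within 50 kb of 40 nose regions (5.76%), and the median gap between neighbours was 866 kb. Some of the 40 were adjoining peaks counted apart because they did not overlap. Summits stood 0.308 kb apart at Nr5a2 and 0.217 kb apart at Cntnap5b. Among jaw regions 2 lay within 50 kb of each other, and the median gap was 6790 kb. Within 100 kb of a start, 309 nose regions were assigned to 296 genes and 71 jaw regions to 71 genes. The number of genes with 2 nose regions was 13, and no gene had 3 or more on either side. The median gap to the nearest region called in all 6 libraries was 16.0 kb from a nose region and 11.6 kb from a jaw region. There were 69940 such regions, and the gap was not measured from other places, so nothing is read from it.

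In base composition nose and jaw regions were close to each other. The median GC content of the window was 43.8% (95% interval 43.3 to 44.3) in nose regions and 44.8% (42.8 to 45.8) in jaw regions. It was 56.7% in regions strong in all 6 and 47.3% in all merged regions. Jaw regions were wider, with a median of 535 bp against 406 bp, in a merge of 4 peaks against 2. Repeat sequence, as RefSeq masks it, took over 50% of the window in 20 nose regions (2.88%) and 8 jaw regions (5.44%), with overlapping intervals (1.87 to 4.40 and 2.78 to 10.4). It did so in 1.07% of regions strong in all 6 and in 5.92% of all merged regions.

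The genes known for facial development were compared through 22 lists with 220 genes in all. Within 100 kb of a list gene stood 4 of the 911 strong nose regions assigned to those genes (0.439%) and 4 of the 663 strong jaw regions (0.603%). For all genes the shares were 0.823% and 0.243%. The counts are small, and nothing is read from them about the lists.

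The nose regions among them stood near Gsc, Nr2f2, Tbx15 and Pax1. The Gsc region, chr12:104552603-104553030, was 79.4 kb upstream of this homeobox gene of the first arch, with 6.81 and 9.54. The Nr2f2 region, chr7:70390503-70391132, was 24.0 kb upstream of the start, in an intron of the noncoding gene B130024G19Rik, with 12.7 and 7.77. Nr2f2 is an orphan nuclear receptor of head mesenchyme. The Tbx15 region, chr3:99198139-99198592, lay 55.5 kb upstream in an intron of Wars2, with 5.99 and 7.29, and the Pax1 region, chr2:147414641-147415131, lay 49.8 kb downstream, with 5.49 and 10.9. Gsc had been placed on the lower jaw list, and the region beside it was a nose region.

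The jaw regions near listed genes stood at Hand2, Sox9, Osr1 and Twist2. The Hand2 region, chr8:57348964-57349630, was 28.5 kb downstream of the start of this regulator of lower jaw identity, in an exon of the noncoding gene 5033428I22Rik. Its −log10 q was 9.22 and 17.3 in the maxillary replicates and 12.3 and 7.65 in the mandibular replicates. The Sox9 region, chr11:112798714-112799315, lay 16.9 kb downstream of this regulator of cartilage, with 9.62, 12.7, 9.35 and 9.33 in the same order. Osr1, a zinc-finger factor of jaw and palate mesenchyme, had a region 81.2 kb upstream at chr12:9492899-9493586, with 5.90, 11.8, 6.64 and 5.91. Twist2, a basic helix-loop-helix factor of mesenchyme, had one 63.0 kb upstream at chr1:91738114-91738733, with 8.39, 10.6, 10.5 and 5.23.

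Widening the limit to 500 kb brought 11 nose and 6 jaw regions near listed genes. Added nose regions lay 215.8 kb upstream of Bmp2, 119.1 kb downstream of Grem1, 269.8 kb upstream of Meis2 and 432.3 kb downstream of Ntrk3, beside second regions at Tbx15 and Pax1. Bmp2 encodes a bone morphogenetic protein and Grem1 an antagonist of such ligands. The added jaw regions were the one at Pax3 and one 162.8 kb downstream of Tfap2a, a neural crest factor.

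The lists made to mark the nose held no nose region within 100 kb. Frontonasal mesenchyme had 0 of 45 strong nose regions, nasal epithelium 0 of 59 and olfactory neurons 0 of 51. At the all-gene share of 0.823%, such counts are too small to tell a list at 0 from the background. Within 500 kb nasal epithelium had 1 of 93 (1.08%), against 1.28% for all genes. Strong peaks were present there all the same. Alx1, the frontonasal homeobox gene, had 9 regions within 100 kb that were strong in both nose libraries and 5 strong in all 4 jaw libraries, Pax6, the eye and nose regulator, had 12 and 3, and Alx4 had 5 and 3. Crabp1, Six2 and Sox2 had 6, 8 and 9 strong nose regions and 5, 6 and 8 strong jaw regions. Pax7 had 2 and 0. On the lower jaw list, Hand1 had 4 and 3, Hand2 7 and 7, Dlx5 2 and 2, Dlx6 4 and 5 and Ednra 5 and 4, while Dlx4 had 0 on either side. These pairs of counts rest on 2 libraries against 4 and were not tested.

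The share of each library's strong regions that lay near list genes was tested with members left out. For the 6 lists tested (frontonasal mesenchyme, nasal epithelium, olfactory neurons, lower jaw, upper jaw and first arch, head muscle) the nose and jaw libraries overlapped. Frontonasal mesenchyme genes took 0.0928% ± 0.000523 (SD, n = 2) in nose and 0.0847% ± 0.0129 (SD, n = 4) in jaw libraries, and the exact permutation p was 0.533 (two-sided). Over the 6 lists the exact permutation p ran from 0.333 to 1. With 2 libraries against 4 there are 15 divisions, so that the smallest p possible is 0.0667 and no such test can pass 0.05.

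Motifs were not used by the rule, and several stood in nose and jaw regions at shares whose intervals did not overlap. The E-box CATCTG, searched on both strands as were all words, stood in 65 of 147 jaw windows, or 44.2% (36.4 to 52.3), and in 115 of 695 nose windows, or 16.5% (14.0 to 19.5). Of regions strong in all 6 libraries and over 1 kb from a start, 25.1% held it, and of all merged regions 20.7%. Jaw regions thus stood above, and nose regions below, the shared regions. The word occurred more than once in 14 jaw windows (9.52%) and in 14 nose windows (2.01%), against 3.61% of the shared regions over 1 kb from a start. Where present, its nearest copy had a median distance to the summit of 41.5 bp in jaw and 43.5 bp in nose regions. The median was 45.5 bp in the shared regions over 1 kb from a start, so the word stood at much the same distance in all 3 sets.

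The opposite order was seen for CAGGTG, the E-box that Zeb and Snai zinc-finger proteins also bind. It stood in 130 nose windows, or 18.7% (16.0 to 21.8), and in 9 jaw windows, or 6.12% (3.25 to 11.2), with 11.2% in shared regions over 1 kb from a start and 12% in all regions. It occurred more than once in 20 nose windows (2.88%), against 0.664% of shared regions over 1 kb from a start. No jaw window held it more than once, but only 9 held it at all. The SOX word ACAATG stood in 129 nose windows, or 18.6% (15.8 to 21.6), and in 12 jaw windows, or 8.16% (4.73 to 13.7), against 8.21% in shared regions and 10.3% in all regions. For ACAATG the jaw regions were thus near the shared regions and the nose regions apart from both.

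**Figure D3:**
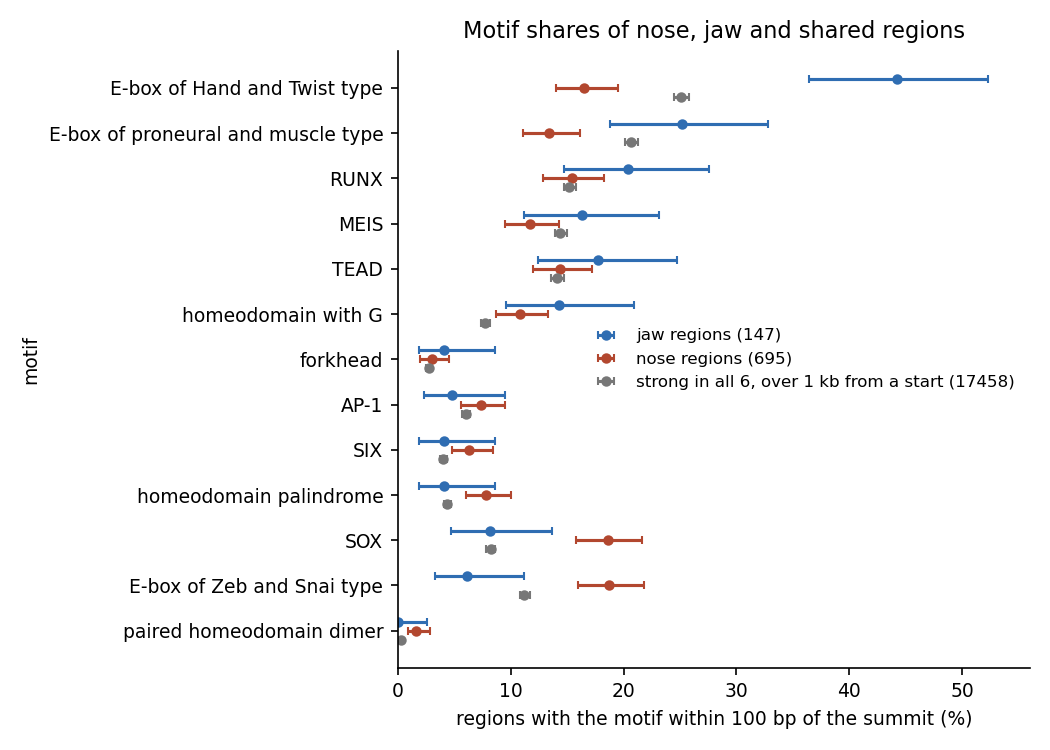
Share of jaw regions (blue), nose regions (red) and regions strong in all 6 libraries over 1 kb from a start (grey) with each of 13 motifs within 100 bp of the summit; points are percentages and bars 95% Wilson intervals. The E-box of Hand and Twist type stands at 44.2% in jaw and 16.5% in nose regions, and the SOX and Zeb and Snai words at 18.6% and 18.7% in nose and 8.16% and 6.12% in jaw regions.

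The 10 kinds of E-box, CANNTG, differed among themselves. CAGCTG, the proneural and muscle type, stood in 25.2% (18.8 to 32.8) of jaw and 13.4% (11.1 to 16.1) of nose windows, with 20.7% in shared and 15.8% in all regions. CATATG stood in 16.3% (11.2 to 23.1) of jaw and 5.47% (4.01 to 7.42) of nose windows, with 5.43% in shared and 5.69% in all regions. CAAGTG stood in 14.4% (12 to 17.2) of nose and 7.48% (4.23 to 12.9) of jaw regions, with overlapping intervals, and in 9.82% in shared and 11.1% in all regions. CAAATG stood in 17.4% of nose and 19.0% of jaw regions, and 12.2% of shared and 13.8% of all regions. Any E-box at all was found in 83.7% (76.9 to 88.8) of jaw, 72.7% (69.2 to 75.8) of nose, 72.5% of shared and 70.6% of all regions.

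Homeodomain words were less frequent. The paired homeodomain dimer, TAAT and ATTA facing each other with 3 bases between, is a site bound by Alx and Prrx proteins. It was in 11 nose windows, or 1.58% (0.886 to 2.81), and in none of the jaw windows, which allows a share of up to 2.55%. The share was 0.286% in shared regions over 1 kb from a start and 0.381% in all regions. The strongest of the 11 lay 567.7 kb upstream of Pom121l12, with −log10 q of 11.62 and 17.75. Another lay 515.4 kb downstream of Nr2f2, at chr7:69844986-69845326, with 9.27 and 9.42. Others were nearest to Filip1, Cntnap5b and Dab1, and nothing is read from these genes. TAATTA was in 7.77% (6 to 10.0) of nose and 4.08% (1.88 to 8.62) of jaw regions, with 4.36% in shared and 5.14% in all regions, and the intervals of nose and jaw overlapped. GGATTA, a site of Otx, Pitx and Gsc factors, was in 10.6% (8.57 to 13.2) of nose and 7.48% (4.23 to 12.9) of jaw regions, with 5.83% in shared and 6.78% in all regions. TAATTG was in 14.3% of jaw and 10.8% of nose regions, with 7.72% and 8.31%. The nose and jaw intervals of both words overlapped.

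Other words showed overlapping intervals between nose and jaw. The RUNX word TGTGGT was in 20.4% of jaw and 15.4% of nose regions, the MEIS word TGACAG in 16.3% and 11.7%, the TEAD word GGAATG in 17.7% and 14.4%, the AP-1 word TGANTCA in 4.76% and 7.34% and the forkhead word TGTTTAC in 4.08% and 3.02%. In all merged regions these 5 were at 15.3%, 16.3%, 13.9%, 6.87% and 3.13%. The 10 words not named so far stood in at most 9.78% of nose and 8.16% of jaw regions, with overlapping intervals. The CTCF core was in no nose and no jaw window, against 1.94% of shared regions over 1 kb from a start and 0.546% of all regions. A match is a run of letters and not a bound site.

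Shares were also set against the number of other-tissue libraries that had a peak, so that regions outside the members entered too. Among regions over 1 kb from a start and strong in both nose libraries, CATCTG stood in 16.5%, 19.0%, 19.2%, 20.3% and 23.6% of those with a peak in 0, 1, 2, 3 and 4 jaw libraries. ACAATG stood in 18.8%, 16.0%, 12.5%, 11.3% and 8.77% over the same steps, and CAGGTG in 18.4%, 14.0%, 13.2%, 13.1% and 11.8%. Among those strong in all 4 jaw libraries, CATCTG stood in 44.2%, 40.9% and 26.7% of those with a peak in 0, 1 and 2 nose libraries. The 379 regions with a peak in 1 nose library are no members, and their interval of 36.1 to 45.9 lay above the shared regions. ACAATG showed no such order on the jaw side, where it stood in 8.16%, 11.1% and 8.30% over the same steps. CAGGTG stood in 6.12%, 5.28% and 11.1%, lower with a peak in 0 or 1 nose libraries than in 2. Its interval in the 379 regions was 3.44 to 8.01, below the 11.1% of regions with a peak in 2 nose libraries. The interval of the jaw regions themselves, 3.25 to 11.2, reached that share. Median GC content rose along the nose steps from 43.8% to 49.8% and along the jaw steps from 44.8% to 49.8%, and its part in these orders was not tested.

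**Figure D4:**
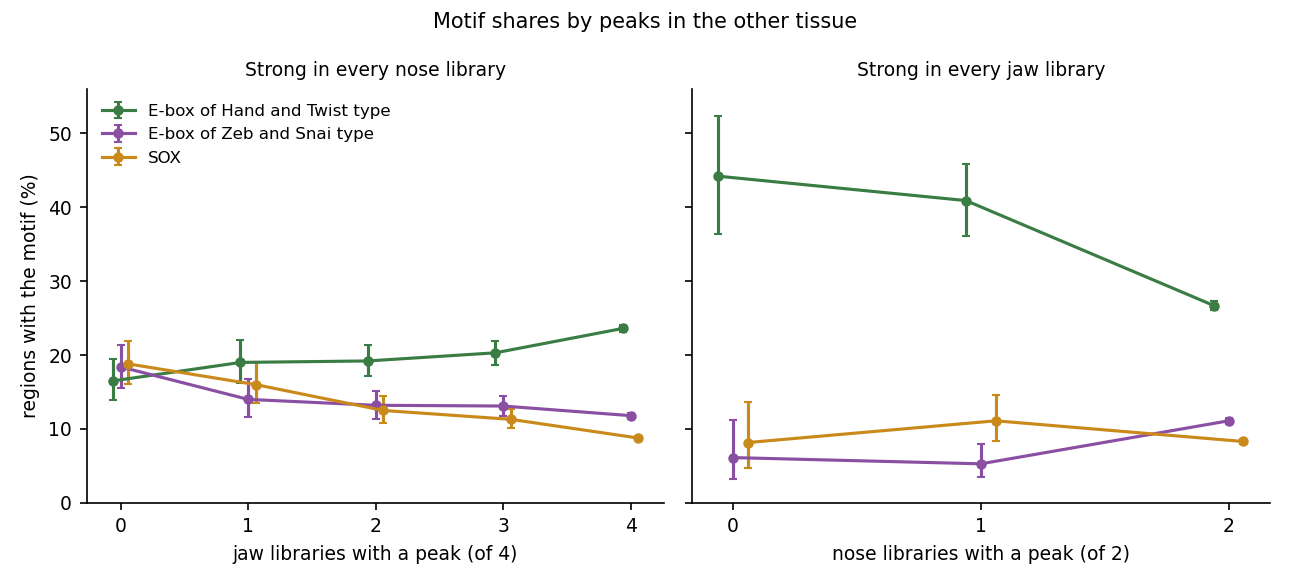
Share of regions over 1 kb from a start with each of 3 motifs against the number of libraries of the other tissue with a peak, for regions strong in both nose libraries (left) and in all 4 jaw libraries (right); points are percentages, bars 95% Wilson intervals and lines join points of one motif. The E-box of Hand and Twist type runs from 16.5% to 23.6% on the left and from 44.2% to 26.7% on the right.

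Motif shares were then compared across libraries, in each library's strong regions with the 842 nose and jaw regions left out. CATCTG stood in 18.2% and 18.7% of strong regions in the nose replicates, in 20% and 22% in the maxillary replicates and in 22.1% and 21.7% in the mandibular replicates. Every nose library was below every jaw library. The means were 18.4% ± 0.344 (SD, n = 2) and 21.4% ± 0.949 (SD, n = 4), a difference of -3.02 percentage points, with an exact permutation p of 0.0667 (two-sided), the smallest this design can give, and 0.267 after Benjamini-Hochberg adjustment over 8 motifs. Over the alternatives without a block the exact permutation p ran from 0.0667 to 0.267, the highest at a threshold of 10. The paired homeodomain dimer stood in 0.315% and 0.376% in nose, 0.205% and 0.26% in maxillary and 0.212% and 0.221% in mandibular libraries. The nose libraries were the higher without overlap, by 0.121 percentage points, with an exact permutation p of 0.0667 and 0.267 after adjustment. With replicate number as a block the exact permutation p of both was 0.111, the smallest possible there.

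The other 6 motifs tested (SOX, EBF, forkhead, TFAP2, the homeodomain palindrome and the proneural and muscle E-box) overlapped between nose and jaw libraries, with exact permutation p of 0.333 to 0.867. ACAATG stood in 8.03% and 8.19% in nose and in 6.96% to 8.15% in jaw libraries, a difference of 0.437 points with an exact permutation p of 0.333. The 8 tests thus gave 2 motifs without overlap, and none past 0.05 with or without adjustment. CAGGTG and CATATG, added after their shares in members had been seen, overlapped for CAGGTG (12% ± 0.750 (SD, n = 2) in nose and 11.1% ± 1.19 (SD, n = 4) in jaw, exact permutation p of 0.333), while CATATG stood in 4.23% and 4.22% in nose and 4.28% to 5.82% in jaw libraries, with an exact permutation p of 0.133.

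**Figure D5:**
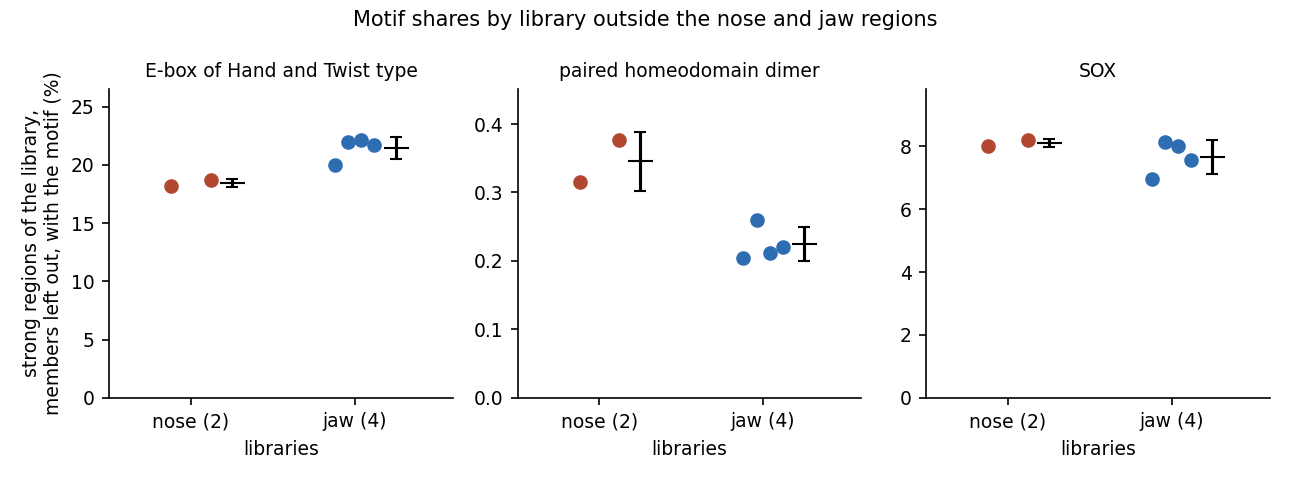
Share of each library's strong regions, members left out, with each of 3 motifs, as points for the 2 nose libraries (red) and the 4 jaw libraries (blue), with the mean and SD in black. Nose libraries stand at 18.2% and 18.7% and jaw libraries at 20% to 22.1% for the E-box of Hand and Twist type, while the SOX shares overlap.

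Among the named members the Hand and Twist word stood in windows of both sides. These members were named for strength or gene, and nothing is read from their number. On the jaw side the word stood in the windows at Igfbp3, Trdmt1, Cntnap2, Unc5d, Ostm1 and 4930596D02Rik among the 10 strongest, and at Hand2, Osr1 and Tfap2a among those near listed genes. It was missing from the windows at Pax3, Atg10, Zmym5, Sox9 and Twist2. On the nose side it stood at Cblb, Esd, Nrg1 and Irx1 among the 10 strongest and at Nr2f2, Tbx15 and Pax1 near listed genes. It was missing there from the windows at Ipo5, Gm28710, Ppargc1a, Kdm4c, Wac, Il7 and Gsc. CAGGTG stood at Gm28710, Ppargc1a, Cblb, Wac and Irx1, and ACAATG at Wac, Nrg1 and Il7.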

How the data were processed

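Bulk ATAC-seq libraries of 3 labels with 2 replicates each were used. Per the submitters' processing notes, Bowtie2 and SAMtools were used with mm10, versions not given, and the peak caller is not given in the sources used here. The authors deposited 1 peak list per library, called without the other libraries. From the layout of the lists and the range of the values, the deposited columns of each summit line were read as score, fold over local background, −log10 p and −log10 q, and the threshold of 5 rests on that reading. The deposited score is a scaled form of the −log10 p, cut to a whole number and capped, and was not used. Depth in reads is unknown.

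Lists were merged at 1 bp, and a region took its highest −log10 q per library and a window reaching 100 bp either way from the strongest summit of its tissue. The nearest start was that of a protein-coding transcript of GENCODE M21 basic (21827 genes), and sequence came from RefSeq GRCm38. The 24 motifs were searched on both strands. Shares have 95% Wilson intervals. Library shares were tested by exact permutation over 15 divisions of the libraries, two-sided, with Benjamini-Hochberg adjustment over 6 lists or 8 motifs. Because labels do not say that replicates are separate embryos, p-values measure the spread between these libraries only. Same-numbered replicates varied together only weakly (correlations of replicate differences of 0.0404 to 0.0470 over 69940 regions called in all 6), so the main tests did not pair them. Peaks on Y did split by replicate number in all labels, and whether same-numbered libraries share embryos or a pool is not stated, so blocked values are given beside the tests. Named genes were those nearest to the 10 strongest regions of each side, list genes with a region, genes within 1 kb of one, and genes of the frontonasal mesenchyme, nasal epithelium and lower jaw lists. Some of these are not reported here. The regions, lists and motifs were chosen with earlier results of these data known. Tools were Python 3.11.15 with scipy 1.17.1, pandas 2.3.3, numpy 2.4.6 and matplotlib 3.10.9.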

Additional observations from a re-analysis of the deposited data

Results flagged for a closer look

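One of 14 library shares set a library apart within its tissue. The homeodomain palindrome TAATTA stood in 4.63% of the strong regions of maxillary replicate 2, members left out, and its gap to the next of the 4 jaw libraries exceeded Dixon's 95% critical value as a share of their range. About 1 in 20 groups passes that value by chance. Maxillary replicate 2 also had the most strong regions, 94511, and the highest lower limit of −log10 q, 2.55. Their part in this value was not tested.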

How the results depend on the processing

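The counts of regions were set by the settings. A threshold of 3 gave 2986 nose and 763 jaw regions and a threshold of 10 gave 82 and 6. Leaving out all peaks under a −log10 q of 3 gave 1339 and 516, cutting every list to the length of the shortest 1151 and 321, and counting a peak only if it covered 50% of a region or 200 bp 1325 and 553. Leaving out 1 library gave 782 to 2785 nose and 172 to 541 jaw regions. With 1 library fewer the rule asks less, by its construction.

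The median distance to a start was 94.4, 160, 101 and 106 kb for nose regions at thresholds of 3 and 10, with the floor of 3 and with the cover rule, and 94.0 to 115 kb without 1 library. For jaw regions it was 286 kb at a threshold of 10, over 6 regions. Starts of every gene, noncoding ones included, brought the medians to 28.8 and 31.6 kb and the nose share within 1 kb to 2.59%. At a threshold of 3 the jaw share within 1 kb was 3.01%. Regions near list genes became 56 and 14 on the nose side and 16 and 12 on the jaw side at a threshold of 3 and with the floor, and 11 on the nose side within 500 kb.

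The E-box CATCTG stayed lower in nose than in jaw regions under all 13 settings added after seeing the data. Its nose minus jaw difference, -27.7 percentage points, was -47.2 at a threshold of 10 and -16.0 in windows of 50 bp on each side, and -27.9 to -20.6 without 1 library. The differences for the Zeb and Snai, SOX, proneural and muscle and paired homeodomain dimer sites kept their sign in these 13 settings but not their size. From 10.4 points, SOX came to 6.63 without nose replicate 1 and 5.19 without nose replicate 2. The Zeb and Snai difference came from 12.6 to 7.42 without nose replicate 2, and the dimer from 1.58 to 0.957 without maxillary replicate 2. The proneural and muscle difference came from -11.8 to -6.02 without maxillary replicate 1, -7.43 without maxillary replicate 2 and -0.813 at a threshold of 10.

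In the library tests, the differences for CATCTG and the paired homeodomain dimer kept their direction in 10 of 10 settings. The exact permutation p for CATCTG was 0.267 at a threshold of 10, and 0.2 without maxillary replicate 2, mandibular replicate 1 or mandibular replicate 2, where the smallest possible is 0.1. For the dimer it was 0.1 without any 1 jaw library. Small differences turned. At a threshold of 10 those of EBF, the homeodomain palindrome, head muscle, lower jaw, nasal epithelium and olfactory neurons became -0.0031, -0.0117, -0.00347, 0.0104, 0.00411 and -0.0106 points, at a threshold of 3 head muscle became -0.000213, and in windows of 50 bp EBF and the palindrome became -0.00728 and -0.00455. Without 1 library they ran from -0.00396 to 0.0335 for EBF, -0.0765 to 0.263 for the palindrome, -0.0135 to 0.0105 for nasal epithelium and -0.0017 to 0.0058 for olfactory neurons. The cause was not tested. The replicate block (exact permutation p of 0.111 for CATCTG and the paired homeodomain dimer) changed no other call. Peak lists without depth limit every statement of absence to the lower limit of each list.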

Other observations

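All 2080 words of 6 letters, strands joined, were ranked by the difference in share between jaw and nose windows, a scan chosen after the motif shares had been seen. CATCTG came first on the jaw side, at 44.2% against 16.5%, and the next words were GCAGAT (21.1% against 7.48%) and ACATCT (25.9% against 12.5%), which overlap it in part. CAGCTG came sixth and CATATG eighth, so that 3 of the first 8 were E-boxes. On the nose side CAGGTG came first, at 18.7% against 6.12%, followed by ACAGTG (21.7% against 9.52%) and GTGAAA (21.6% against 9.52%). ACAATG also stood among the first 12 on that side, at 18.6% against 8.16%.

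The 13 genes with 2 nose regions within 100 kb, named after their counts were seen, were 1810046K07Rik, Cd44, Epha7, Ghr, Grip1, Kcnv1, Mdga2, Nr5a2, Nrcam, Rell1, Sema3d, Trpm3 and Veph1. The 2 at Nr5a2 had summits 0.308 kb apart and were counted apart because their peaks did not overlap. Cd44 is a receptor of hyaluronan, Epha7 an ephrin receptor, Sema3d a secreted guidance protein and Nrcam and Mdga2 cell adhesion proteins.

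The X chromosome held 17 of its 1460 strong nose regions as nose regions (1.16%, against 1.42% over all chromosomes) and 8 of its 1069 strong jaw regions as jaw regions (0.748%, against 0.409%). The Y chromosome held none, of 7 and 8 strong regions. Peaks on Y numbered 74, 88 and 81 in the replicates numbered 1 of maxillary, mandibular and nose labels and 26, 28 and 25 in those numbered 2, so that this difference fell between replicates and not between nose and jaw.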
